A study of Mus musculus with 4 samples.

Results

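T-cell-rich spots were the Visium spots of the 2 normal kidney sections that held at least 3 unique molecular identifiers (UMIs, each standing for 1 captured transcript) of 6 T cell genes in sum. The genes were Cd3d, Cd3e, Cd3g, Trac, Trbc1 and Trbc2, and the spots that met this rule are called members. There were 147 members among the 5298 tissue spots of the normal sections, of 10312 spots in the series, with 62 of 2616 in normal 1 (2.37%, 95% Clopper-Pearson interval 1.82 to 3.03%) and 85 of 2682 in normal 2 (3.17%, 2.54 to 3.9%). They were compared with the spots of the same section that held 0 UMIs of the 6 genes (0-UMI spots), 2178 in normal 1 and 2271 in normal 2. The sections were 10 µm cuts of the left kidney of male wild-type C57BL/6J mice aged 7 to 8 weeks. Normal sections came from control mice, and ischemic sections, used only in the last comparison, from mice taken 24 h after 30 min of bilateral renal ischemia. All mice were wild type and the kidneys were decapsulated and snap-frozen. The study describes technical replicate sections of the same mice, and no label ties a section to its mouse. The spread between sections, which p measures in the comparison of conditions, may therefore be technical. In the tests within normal sections the section was a block, and p rested on a spread fitted over all genes. The sections held 44528078 and 27657481 UMIs in normal 1 and 2 and 31053530 and 25957128 in ischemic 1 and 2. A Visium spot is a small area that can hold several cells of different types, and spots of 1 section are not replicates. Intervals on shares cover counting error only.

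The genes of the rule encode the fixed parts of the T cell receptor. CD3 delta, epsilon and gamma chains carry the signal of the receptor into the cell, and Trac, Trbc1 and Trbc2 encode the constant regions of the alpha and beta chains that bind antigen on MHC molecules. CD8 T cells read MHC class I, CD4 T cells read MHC class II, and DN T cells, the subject of the study, carry the alpha-beta receptor with neither co-receptor. A normal kidney holds few T cells, lying between tubules, around vessels and beneath the urothelium of the pelvis, beside resident macrophages and dendritic cells.

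In GRCm38 the CD3 genes lie together on chromosome 9, with Cd3g at 44969572-44980431 on the minus strand, Cd3d at 44981786-44987339 on the plus strand and Cd3e at 44998740-45009627 on the minus strand. Trac is at chromosome 14, 54220521-54224206, plus strand, and Trbc1 and Trbc2 at chromosome 6, 41538218-41539881 and 41546730-41548352, plus strand, both annotated as constant-region genes. Trbc1 and Trbc2 are near-identical copies, so the division of UMIs between them is uncertain, while their sum is less affected. These values chose the members and are given as a description. Section totals in the order Cd3d, Cd3e, Cd3g, Trac, Trbc1 and Trbc2 were 111, 35, 118, 142, 127 and 209 UMIs in normal 1 and 132, 51, 139, 177, 167 and 277 UMIs in normal 2. Members held 287 of 742 of these UMIs in normal 1 (38.7%) and 552 of 943 in normal 2 (58.5%). Most members lay near the threshold, with 28 and 32 at exactly 3 UMIs, just inside it, and 79 and 65 spots at 2 UMIs, just outside it. The median member held 4 UMIs in both sections, 2 and 15 members held 10 or more, and the highest spot held 34 in normal 1 and 26 in normal 2. The median member carried UMIs of 3 of the 6 genes, and 1 member of normal 1 rested on Trac alone.

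Trac stood apart from the other rule genes. In spots with 0 UMIs of the other 5 genes it was at 1.8 and 3.33 counts-per-million (CPM) in normal 1 and 2, and at 1.53 and 1.71 CPM in the ischemic sections. It made up 19.1% and 18.8% of the rule UMIs in normal sections and 60.3% and 63.9% in ischemic ones. Without Trac the rule found 45 and 69 spots. The CD3 genes and the receptor genes were then read against each other. Where Cd3d, Cd3e and Cd3g together gave 0, 1 and 2 or more UMIs, the receptor genes stood at 7.48, 28 and 117 CPM in normal 1 and 11.8, 62.5 and 255 CPM in normal 2. Spots rich in one set of genes were thus rich in the other in each section. Depth also bears on the rule: the median member and 0-UMI spot held 16034 and 16070.5 UMIs in normal 1 and 13804 and 8336 UMIs in normal 2. With each spot thinned to 5000 UMIs, 15 of 2495 spots (0.601%) and 33 of 2084 spots (1.58%) met it, 121 and 598 shallower spots being left out.

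Members lay in every zone of the kidney, and most often per spot in the pelvis. Zones were assigned from marker genes of the spot and its neighbours, with uroplakins (Upk1a, Upk1b, Upk2, Upk3a), Krt5 and Psca marking the pelvis. In the order cortex, outer stripe, inner stripe, inner medulla and pelvis there were 23, 18, 10, 4 and 7 members in normal 1 and 18, 21, 7, 16 and 23 in normal 2. Of all pelvis spots, 5.34% (2.18 to 10.7%, Clopper-Pearson) were members in normal 1 and 17% (11.1 to 24.5%) in normal 2. For the cortex these shares were 1.95% (1.24 to 2.92%) and 1.55% (0.922 to 2.44%). The intervals of pelvis and cortex overlapped in normal 1 and did not in normal 2. The rule genes' share of all UMIs, which is less tied to depth, ran from 11.6 CPM in the cortex over 14.7, 26.8 and 36.3 CPM to 57.3 CPM in the pelvis of normal 1, and in the same order from 18.3 over 20.2, 35.5 and 126 to 165 CPM in normal 2. The order of the 5 zones was the same in both sections.

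The sections differed in how members were arranged. In normal 1, 47 of 62 members touched no other member on the hexagonal grid and the largest group of touching members held 3 spots. In normal 2, 36 of 85 touched none, and groups of 11, 11, 7 and 5 spots were found. Of the neighbours of members, each counted once for every member it touched, 4.52% and 23.5% were members themselves, beside 2.37% and 3.17% of all spots. Members lay a median of 4 and 2 grid steps inside the tissue edge, and 0-UMI spots 4 and 4. A single member of normal 1 lay on a detached piece of tissue and held 1294 UMIs of the 7 adipocyte genes among its 18838 UMIs.

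**Figure D1:**
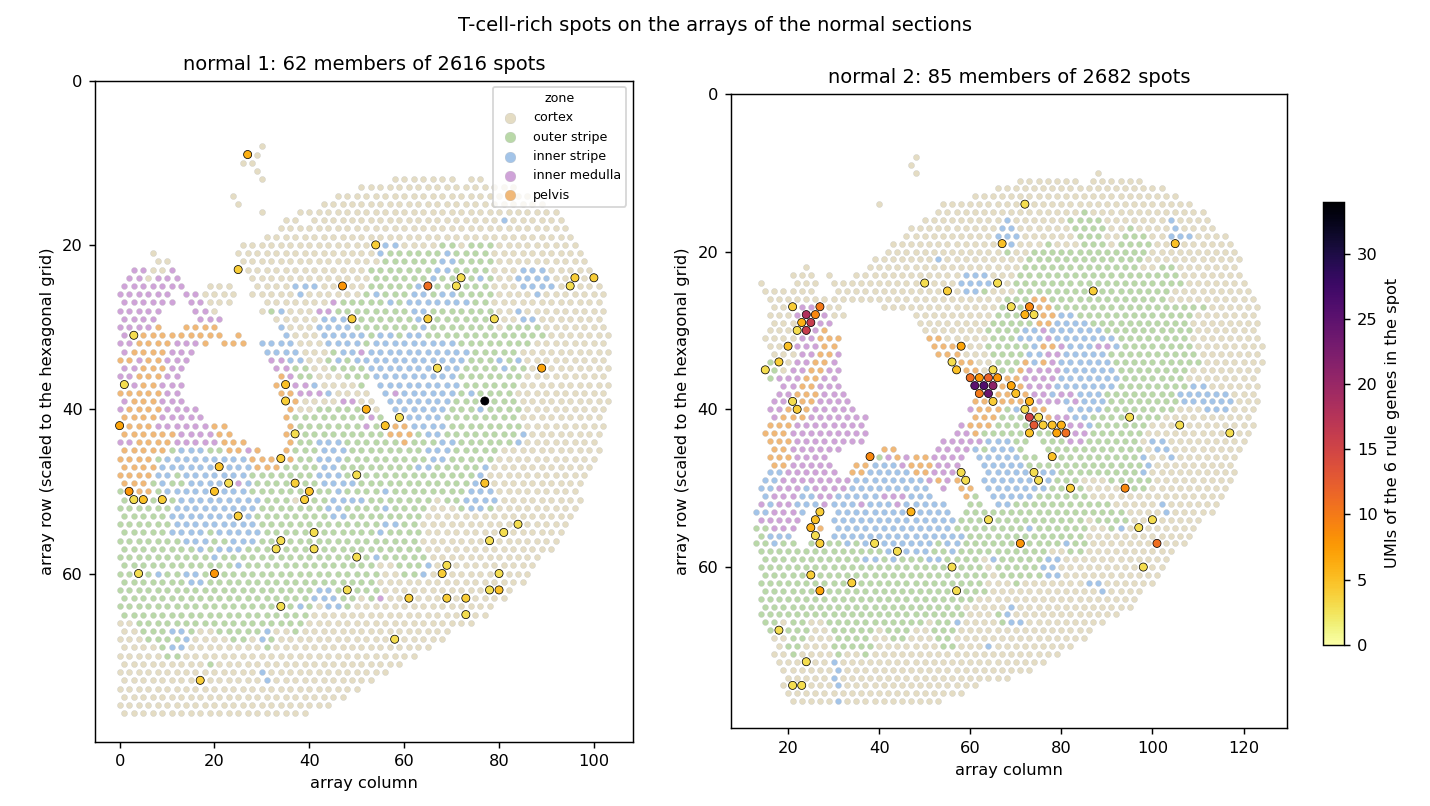
Position of every tissue spot in normal 1 (left) and normal 2 (right) by array column and row, coloured by assigned zone, with members outlined in black and shaded by their UMIs of the 6 rule genes. Members were scattered over normal 1 and gathered into patches along the pelvis and inner medulla of normal 2, where 15 spots held 10 or more UMIs against 2 in normal 1.

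The other T cell genes were high in the same spots. For every gene outside the rule, counts were summed per section over members and over 0-UMI spots and tested between them with the section as a block (edgeR, Benjamini-Hochberg adjusted p under 0.05). Of 13915 genes tested, 992 (7.13%) were higher in members and 363 (2.61%) lower, and 965 and 357 of these moved the same way in both sections. Each fold change rests on 4 sums, a pair per section, its p on a spread fitted over all genes, and CPM in the gene tests are scaled by TMM. Of 24 genes of T cell signalling and surface, 22 were tested and 19 rose, with a median log2 change of 3.75 beside -0.03 over all genes tested. DESeq2 gave 447 higher (3.21%) and 7 lower (0.0503%) genes, 18 of 22 of this list among them. Genes of very low level in 0-UMI spots entered the test only where members were high: 14 of the 22 passed the filter through members alone, and of the 8 others 6 rose. Cd28 and Trat1 did not pass it.

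Ptprcap, which encodes a partner of the CD45 phosphatase in lymphocytes, went from 2.61 to 40.4 CPM in normal 1 and from 2.74 to 64.7 CPM in normal 2 (log2 change 4.27 ± 0.26 SE, edgeR adjusted p = 6.60e-58). Ms4a4b, a membrane protein of T cells, went from 0.84 to 23.5 CPM in normal 1 and from 1.37 to 39.5 CPM in normal 2 (log2 change 4.82 ± 0.40 SE, edgeR adjusted p = 4.21e-31). Lat, the adaptor that relays the receptor signal, went from 1.43 to 22.5 CPM in normal 1 and from 2.27 to 45.3 CPM in normal 2 (log2 change 4.17 ± 0.35 SE, edgeR adjusted p = 1.16e-30). Thy1, a surface protein of mouse T cells that is also found on other cells, went from 2.08 to 23.5 CPM in normal 1 and from 3.08 to 44.6 CPM in normal 2 (log2 change 3.70 ± 0.32 SE, edgeR adjusted p = 7.91e-28). In each case the CPM of the member sum was more than 10 times that of the 0-UMI sum of the same section. Cd2, an adhesion receptor of T and NK cells, had one of the 10 largest rises of all genes (log2 change 5.14 ± 0.58 SE, edgeR adjusted p = 2.36e-16), as did Cd6 (log2 change 4.87 ± 0.66 SE) and Themis (log2 change 5.09 ± 0.92 SE), a gene of thymocyte selection. Ms4a4b, Cd2, Cd6 and Themis passed the filter through members alone, so their rises are given as a description.

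Among the co-receptors, Cd8a and Cd8b1 were the ones detected in numbers. These and Cd4 passed the filter through members alone, and no gene of the CD4, CD8 and regulatory list that stood above its minimum in 0-UMI spots was called. Cd8a had 11 UMIs in members of normal 1 and 24 in normal 2, in 14.5% and 21.2% of members against 1.29% and 1.1% of 0-UMI spots (log2 change 3.70 ± 0.52 SE, edgeR adjusted p = 1.19e-10). Cd8b1 had 19 and 16 UMIs (log2 change 4.33 ± 0.53 SE, edgeR adjusted p = 8.38e-14). Cd4 had 1 UMI in normal 1 and 6 UMIs in normal 2 over all members (log2 change 3.18 ± 0.91 SE, edgeR adjusted p = 0.0075; DESeq2 adjusted p = 0.269). Foxp3, the factor of regulatory T cells, had 0 and 4 UMIs, in 3 members of normal 2, and was not tested. In normal 1, 15 members held Cd8a or Cd8b1 without Cd4, 1 held Cd4 without them, none held both and 46 held neither. Normal 2 gave 25, 4, 0 and 56 members. A spot without these UMIs cannot be read as holding DN T cells at this depth, since Cd3e itself, which every such cell transcribes, had a UMI in only 25.8% and 22.4% of members.

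Of the 12 genes the study names for DN T cells, 6 were tested and 4 rose, and of the 5 above the filter's minimum in 0-UMI spots 3 rose. The study picked most of these genes on its sorted T cells and took Pdcd1 and Cd44 as markers of DN T cell subsets. Being chosen as genes of T cells, they are no separate evidence of direction. Xcl1, a chemokine of NK and CD8 T cells that attracts cross-presenting dendritic cells, passed the filter through members alone and went from 0.311 to 7.51 CPM in normal 1 and from 0.428 to 12.9 CPM in normal 2 (log2 change 4.74 ± 0.61 SE, edgeR adjusted p = 1.18e-12). Fcer1g, a signalling chain of NK and myeloid cells, went from 27.6 to 54.5 CPM in normal 1 and from 30.5 to 111 CPM in normal 2 (log2 change 1.47 ± 0.20 SE), and had a UMI in 29.6% and 23.2% of 0-UMI spots as well. Fgl2 (log2 change 2.68 ± 0.40 SE) and Cd44, an adhesion receptor of activated T cells (log2 change 3.03 ± 0.47 SE), rose too. Cd44 went from 1.65 to 6.57 CPM in normal 1 and from 2.06 to 25.9 CPM in normal 2, and its call was lost without normal 2 (log2 change 2.02) and in members touching no other member (1.52). The calls of Fcer1g (log2 change 0.66) and Fgl2 (1.65) were also lost in members touching no other member. Lyst (log2 change 0.33 ± 0.53 SE, edgeR adjusted p = 0.804) and Dusp1 (log2 change 0.00 ± 0.20 SE, edgeR adjusted p = 0.995) did not pass the test. Pdcd1, the inhibitory receptor PD-1, did not pass the filter, with 1 UMI in members of normal 1 and 10 in normal 2, against 1 and 2 over all 0-UMI spots. The remaining genes were at or near 0 in members: Klrb1c had 1 and 1 UMI, Klre1 2 and 2, Klrc1 1 and 0, and Kcnq5 and Trgv2 0 in both sections. Genes of gamma-delta T cells gave no call, with Trdc at 1 and 2 UMIs and Sox13, which was tested, at a log2 change of -0.18.

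Genes of cytotoxic lymphocytes, shared by CD8 T cells and NK cells, rose as a group, in 12 of 12 tested (median log2 change 4.05), 9 of which passed the filter through members alone. Ccl5, a chemokine of activated T and NK cells, went from 11.4 to 180.3 CPM in normal 1 and from 12.6 to 295 CPM in normal 2 (log2 change 4.27 ± 0.22 SE, edgeR adjusted p = 6.55e-79). It had a UMI in 64.5% and 83.5% of members and in 10.6% and 9.2% of 0-UMI spots, whose median depths are given above. Nkg7, a granule protein, went from 2.08 to 31.9 CPM in normal 1 and from 2.74 to 31.6 CPM in normal 2 (log2 change 3.72 ± 0.34 SE, edgeR adjusted p = 9.81e-26), and Il2rb, the beta chain of the receptors for IL-2 and IL-15, went from 0.777 to 18.8 CPM in normal 1 and from 1.33 to 25.9 CPM in normal 2 (log2 change 4.41 ± 0.46 SE). Granzymes followed, with Gzma at log2 change 3.89 ± 0.50 SE, Gzmb at 4.69 ± 0.65 and Gzmk at 4.86 ± 0.84, all past the threshold. Ncr1, which marks NK cells, had 1 UMI in the members of each section. Ifng, the gene of interferon gamma, had 4 UMIs in as many members of normal 1 and 5 in normal 2, against 4 and 3 over all 0-UMI spots (log2 change 4.77 ± 0.91 SE, edgeR adjusted p = 6.27e-06). Il2rb, Gzma, Gzmb, Gzmk and Ifng were among those that passed the filter through members alone.

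**Figure D2:**
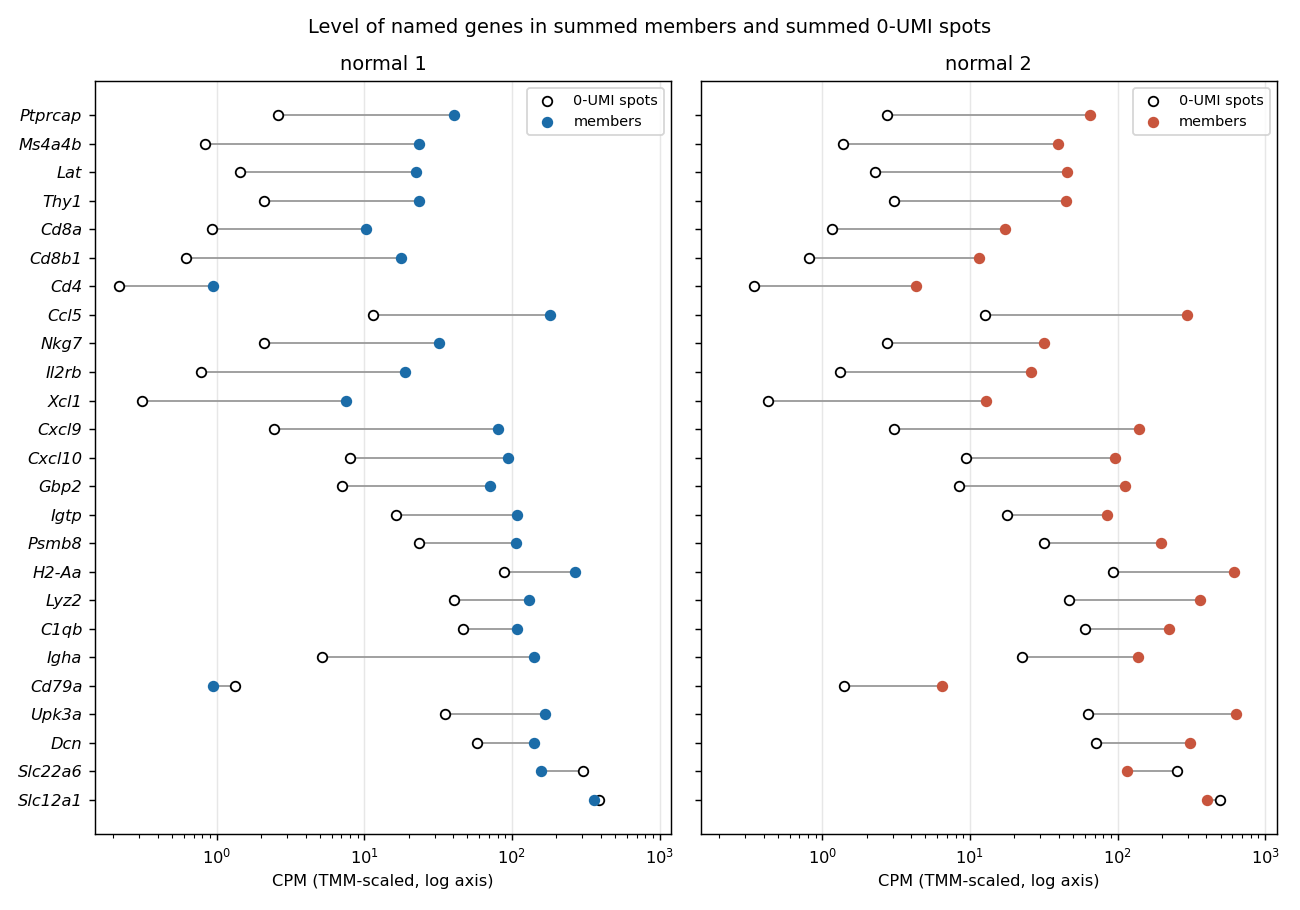
CPM of 25 named genes (TMM-scaled, log axis) in the sum of 0-UMI spots (open points) and the sum of members (filled points) of normal 1 (left) and normal 2 (right). Genes of T cells, cytotoxicity, interferon response and antigen presentation were higher in members of both sections, Cd79a was higher in members of normal 2 alone, and Slc22a6 was lower in both.

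Interferon-inducible chemokines and other interferon response genes were high in members of both sections. Interferon gamma acts on genes through GAS elements in promoters, while type I interferons also act through ISRE elements, and CXCL9 and CXCL10 attract T cells that carry CXCR3. Cxcl9 went from 2.46 to 80.8 CPM in normal 1 and from 3.08 to 139 CPM in normal 2 (log2 change 5.28 ± 0.22 SE, edgeR adjusted p = 1.27e-118), and Cxcl10 went from 7.99 to 93.9 CPM in normal 1 and from 9.34 to 95.6 CPM in normal 2 (log2 change 3.45 ± 0.20 SE, edgeR adjusted p = 2.83e-62). The members with a UMI of Cxcl9 were 19 of 62 and 40 of 85, against 2.71% and 2.51% of 0-UMI spots. Chemokine receptors of T cells rose too, Cxcr3 (log2 change 3.70 ± 0.51 SE) and Cxcr6 (log2 change 4.52 ± 0.57 SE), as did the lymphotoxin gene Ltb (log2 change 4.20 ± 0.37 SE), and of the 3 Cxcr6 passed the filter through members alone. Of the 11 genes of the interferon response 10 rose (median 1.90) and Ifit3 did not pass the test (log2 change 0.63 ± 0.26 SE, edgeR adjusted p = 0.111). Gbp2, a guanylate-binding protein, went from 7.09 to 71.4 CPM in normal 1 and from 8.39 to 112 CPM in normal 2 (log2 change 3.55 ± 0.20 SE, edgeR adjusted p = 1.27e-63). The immunity-related GTPase Igtp went from 16.4 to 108 CPM in normal 1 and from 17.8 to 84.8 CPM in normal 2 (log2 change 2.48 ± 0.20 SE). All 11 stood above the filter's minimum in 0-UMI spots too. Ccl19 and Ccl21a, each listed under 2 identifiers, were not read under their symbols, and Cxcl13 and Cxcr5 did not pass the filter.

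The promoters of these 3 leading genes are shown because the genes moved together in both sections. Sequences are those of RefSeq on GRCm38.p6, from 250 bases before to 50 after the start, written 5′ to 3′ on the gene's strand, with matches to the ISRE letters GAAANNGAAA or its reverse complement TTTCNNTTTC in capitals. No match to the GAS letters TTCNNNGAA, which read the same on both strands, was found in the 3 windows.
Cxcl9 promoter, chr5:92328030-92328329, minus strand: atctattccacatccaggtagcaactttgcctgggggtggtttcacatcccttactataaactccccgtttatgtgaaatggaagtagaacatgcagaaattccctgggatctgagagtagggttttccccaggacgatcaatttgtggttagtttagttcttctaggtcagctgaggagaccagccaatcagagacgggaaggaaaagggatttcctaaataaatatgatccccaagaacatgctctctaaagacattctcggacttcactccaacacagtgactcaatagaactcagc
Cxcl10 promoter, chr5:92348840-92349139, minus strand: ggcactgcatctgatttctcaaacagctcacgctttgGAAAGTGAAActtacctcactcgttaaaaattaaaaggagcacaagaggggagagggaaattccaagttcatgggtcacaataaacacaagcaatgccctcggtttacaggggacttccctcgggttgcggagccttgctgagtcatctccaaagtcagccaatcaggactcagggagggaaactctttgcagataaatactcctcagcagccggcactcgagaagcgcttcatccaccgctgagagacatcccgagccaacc
Gbp2 promoter, chr3:142620413-142620712, plus strand: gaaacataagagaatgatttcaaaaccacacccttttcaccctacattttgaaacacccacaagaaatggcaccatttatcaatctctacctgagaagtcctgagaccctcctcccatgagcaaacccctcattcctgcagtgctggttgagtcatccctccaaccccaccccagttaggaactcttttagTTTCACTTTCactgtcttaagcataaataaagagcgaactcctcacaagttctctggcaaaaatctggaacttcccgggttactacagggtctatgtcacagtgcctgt
The match began 213 bases before the start in Cxcl10 and 59 bases before it in Gbp2, and Cxcl9 held no match in this window. Of 32851 promoters of the same length, 3.44% held the ISRE letters and 8.3% the GAS letters. Of the 8 interferon response genes with a promoter in the table, 6 held the ISRE letters (Isg15, Ifit1, Ifit3, Gbp2, Igtp, Irgm1) and 2 the GAS letters (Irf1, Igtp). The ISRE letters were in 1 of 7 MHC class I, 0 of 5 MHC class II and 2 of 11 lymphoid chemokine and receptor genes with a promoter. A match describes letters and is no evidence of binding.

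Antigen presentation was higher throughout. All 8 MHC class II genes rose (median log2 change 2.09), as did all 9 genes of MHC class I and its peptide supply (median 1.98), and all of them stood above the filter's minimum in 0-UMI spots. H2-Aa, a class II alpha chain, went from 88.9 to 268 CPM in normal 1 and from 93.6 to 612 CPM in normal 2 (log2 change 2.16 ± 0.23 SE, edgeR adjusted p = 5.60e-18), and Psmb8, a subunit of the immunoproteasome, went from 23.5 to 107 CPM in normal 1 and from 31.5 to 198 CPM in normal 2 (log2 change 2.43 ± 0.20 SE, edgeR adjusted p = 1.59e-31). Of the pan-leukocyte genes 10 of 11 rose (median 2.75), among them Cd52, which went from 32 to 173 CPM in normal 1 and from 38.9 to 484 CPM in normal 2. Macrophage and monocyte genes rose in 8 of 11. Lyz2, the lysozyme of myeloid cells, went from 40.5 to 131 CPM in normal 1 and from 47 to 360.1 CPM in normal 2 (log2 change 2.35 ± 0.21 SE, edgeR adjusted p = 2.25e-25), and the complement gene C1qb of tissue macrophages went from 46.5 to 108 CPM in normal 1 and from 60.1 to 224 CPM in normal 2 (log2 change 1.58 ± 0.20 SE, edgeR adjusted p = 6.59e-13). For H2-Aa, Lyz2 and C1qb the CPM of the member sum stood farther above that of the 0-UMI sum in normal 2 than in normal 1, a difference that was not tested. In bulk sums of spots, more cells of a type and more RNA per cell cannot be told apart.

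Dendritic cell genes rose in 8 of 10 tested, 4 of which passed the filter through members alone, and of the 6 others 4 rose (median 1.82). Ccl22, one of those that passed through members alone (from 0.404 to 6.57 CPM in normal 1 and from 0.3 to 23 CPM in normal 2, log2 change 5.22 ± 0.59 SE, edgeR adjusted p = 1.51e-16), encodes a chemokine of activated dendritic cells for CCR4. Ccl17, the other CCR4 chemokine, was among the 10 largest rises of all genes and went from 1.18 to 16 CPM in normal 1 and from 1.8 to 119 CPM in normal 2 (log2 change 5.26 ± 0.27 SE, edgeR adjusted p = 1.37e-81). Without the members assigned to the pelvis or inner medulla, 1 of 8 tested dendritic cell genes was called and Ccl22 no longer passed (log2 change 1.85, edgeR adjusted p = 0.724). Ccl17 still did (3.69, edgeR adjusted p = 5.26e-13). Pelvis and inner medulla spots were left out of the members only in this setting, and 0-UMI spots of all zones were kept. This setting also summed fewer member spots. Within each zone of each section the summed dendritic cell list was higher in members than in 0-UMI spots (CPM ratios 1.68 to 5.9). Neutrophil and mast cell genes gave no call, with S100a8 at 0 and 2 UMIs in members and S100a9 at 1 and 5. Of the 10 largest rises 8 were of genes that passed the filter through members alone, Cxcl9 and Ccl17 being the others, so that the filter bears on this ranking. Its first 2 genes were Apol7c (log2 change 5.64 ± 0.59 SE, edgeR adjusted p = 2.84e-19) and Reg3g, a secreted antibacterial lectin of epithelia (log2 change 5.59 ± 0.56 SE, edgeR adjusted p = 2.64e-21), with 6 and 59 UMIs in members.

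Plasma cell genes rose in 5 of 6 tested and B cell genes in 1 of 4. Igha, the heavy chain of IgA, went from 5.16 to 141 CPM in normal 1 and from 22.5 to 137 CPM in normal 2 (log2 change 3.61 ± 0.20 SE, edgeR adjusted p = 1.87e-65), yet its UMIs lay in 10 and 20 members, with 84 of the 150 UMIs of normal 1 in a single spot. Jchain, which joins IgA and IgM units, went from 1.06 to 32.9 CPM in normal 1 and from 7.54 to 28 CPM in normal 2. Without pelvis and inner medulla members the plasma cell list gave 1 call of 6, Igha, at a log2 change of 1.14, and the sign for Jchain turned (-0.95, edgeR adjusted p = 0.83). Ighg2b, which passed the filter through members alone, had 0 UMIs in members of normal 1 and 120 in those of normal 2. Cd79a, a chain of the B cell receptor complex, had 1 and 9 UMIs (log2 change 1.45 ± 0.70 SE, edgeR adjusted p = 0.204). Ighm, the heavy chain of IgM, was the B cell gene that rose (log2 change 2.31 ± 0.27 SE, edgeR adjusted p = 6.66e-15).

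The remaining lists held markers of other structures of the kidney. All 6 urothelial genes rose (median 2.94), with Upk3a going from 35.3 to 167 CPM in normal 1 and from 62.7 to 630.4 CPM in normal 2. Without pelvis and inner medulla members none rose and 1 fell. That setting cannot decide on these genes, since they assign the pelvis and its 0-UMI spots were kept. Fibroblast and matrix genes rose in 7 of 10, led by Dcn, the proteoglycan decorin (from 58 to 141 CPM in normal 1 and from 71.8 to 308 CPM in normal 2, log2 change 1.71 ± 0.21 SE, edgeR adjusted p = 3.76e-14). The adhesion molecules Icam1 (log2 change 1.25 ± 0.20 SE) and Vcam1 (log2 change 1.43 ± 0.27 SE), to which leukocytes bind, rose, while the endothelial genes Kdr and Emcn did not pass the test (-0.52 and -0.37). Tagln and Cnn1, contractile genes of smooth muscle, rose (1.09 and 1.21, 2 of 8 tested). Without pelvis and inner medulla members, the 0-UMI spots of these zones being kept, both had the opposite sign (-0.33 and -1.71). Lcn2 and Clu, genes of stressed tubules, rose as 2 of the 5 tubule injury genes (1.90 and 1.36). Of the cell cycle genes 4 of 5 rose, 3 of the 5 having passed the filter through members alone, Mki67 among these (from 0.809 to 15 CPM in normal 1 and from 1.8 to 12.2 CPM in normal 2, log2 change 3.43 ± 0.51 SE, edgeR adjusted p = 1.61e-09). Of the 6 cortex markers 3 fell, the organic anion transporters Slc22a6 (from 301 to 158 CPM in normal 1 and from 253 to 116 CPM in normal 2, log2 change -1.03 ± 0.22 SE, edgeR adjusted p = 1.25e-04) and Slc22a8 (log2 change -1.05 ± 0.21 SE) and the thiazide-sensitive transporter Slc12a3 (log2 change -0.67 ± 0.22 SE). The change of Slc12a3 lay in normal 2, from 214 to 207 CPM in normal 1 and from 217 to 85.5 CPM in normal 2, and its call was lost without normal 2 (log2 change -0.02), without pelvis and inner medulla members (-0.07), against matched spots (-0.04) and by DESeq2. No marker of the outer stripe, inner stripe or inner medulla passed the test. The 7 genes that fell by DESeq2 were Cyp4b1, Slc22a6, Slc13a3, Slc22a12, Miox, Slc22a8 and Ugt2b38. The 10 largest falls by edgeR (E230016M11Rik, Mapkapk5, Frs3, Zfp975, Ache, Adat1, Rnf208, Focad, Gm15563 and Defb19) had 0 to 3 UMIs in the members of either section, and 9 of them lost the call without normal 2. With 0 UMIs in both, E230016M11Rik was at least 1.43-fold and 1.76-fold lower per section against the floor of 3 UMIs per sum.

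Since members were more common in the pelvis and inner medulla, list levels were also read within zones, as the summed UMIs of a list on the CPM scale, without TMM. Over the 5 zones of the 2 sections, members exceeded 0-UMI spots of the same zone in 10 of 10 pairs for T cell signalling and surface genes (ratios 2.79 to 9.8), NK and cytotoxic genes (4.22 to 40.5), MHC class II (1.78 to 4.59), MHC class I (1.91 to 3.11) and the interferon response (1.33 to 8.4). Macrophage and monocyte genes (1.47 to 3.55), dendritic cell genes (1.68 to 5.9) and cell cycle genes (2.36 to 14.4) were likewise higher in 10 of 10. Zones held as few as 4 members, however. Urothelial genes were higher in 8 of 10, plasma cell genes in 7 and red blood cell genes in 6. In cortex members the interferon response stood at 352 CPM against 92.5 CPM in 0-UMI cortex of normal 1 and at 515 against 131 CPM in normal 2. Without pelvis and inner medulla members, but with 0-UMI spots of all zones, 293 genes were higher (2.13%) and 55 lower (0.4%). Those higher held 16 of 21 T cell, 9 of 10 cytotoxic, 8 of 8 MHC class II, 9 of 9 MHC class I and 9 of 11 interferon genes. Against 0-UMI spots matched on section, zone and, where enough spots were left, total UMIs, 524 genes (4.53%) were higher and 72 (0.623%) lower. Those higher held 14 of 15, 7 of 7, 8 of 8, 9 of 9 and 9 of 11 of the same lists. In the main test 14 of 22 T cell and 9 of 12 cytotoxic genes passed the filter through members alone. The counts of T cell and cytotoxic genes in both settings are therefore given as a description. All 83 of the 0-UMI pelvis spots of normal 2 were taken, so depth was not matched there. Pelvis members of normal 2 held a median of 20373 UMIs and its 0-UMI pelvis spots 6775. The sections did not carry the calls equally: without normal 1, 1724 genes were higher, and without normal 2, 340, each with the lone pair of sums assumed to vary like the ischemic sections. Of the genes named in the text that were tested, 16 lost the call without normal 2, Cd4, Cd44, Cnn1, Lcn2, Slc12a3, Tagln and Ubash3a among them, and 1 without normal 1, Gm15563.

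The same lists already differed below the threshold. In spots with 0, 1, 2, 3 to 5 and 6 or more rule UMIs, NK and cytotoxic genes stood at 16.6, 47.4, 112, 188 and 829 CPM in normal 1 and 22.2, 65.4, 183, 325 and 758 CPM in normal 2. MHC class II genes ran over 622, 946, 1382, 1842 and 3496 CPM and 761, 1196, 2174, 2863 and 7022 CPM. Both lists were higher at each class than at the one before it in both sections. The interferon response ran over 106, 178, 294, 414 and 1243 CPM in normal 1 and 166, 239, 619.8, 578 and 1108 CPM in normal 2, so that in normal 2 the class of 3 to 5 UMIs lay under that of 2 UMIs. Of the 186 interferon UMIs at 6 or more UMIs in normal 1, 84 came from 1 spot, and without it the class stood at 779 CPM, a value computed after seeing the data. B cell genes reached 179 CPM at 6 or more UMIs in normal 2 and 26.7 CPM in normal 1, from 15.3 and 10 CPM at 0 UMIs. Inner stripe markers, given as tubule genes for reference, lay between 3651 and 4698 CPM in normal 1 and were lowest at 6 or more UMIs in normal 2 (2781 CPM).

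**Figure D3:**
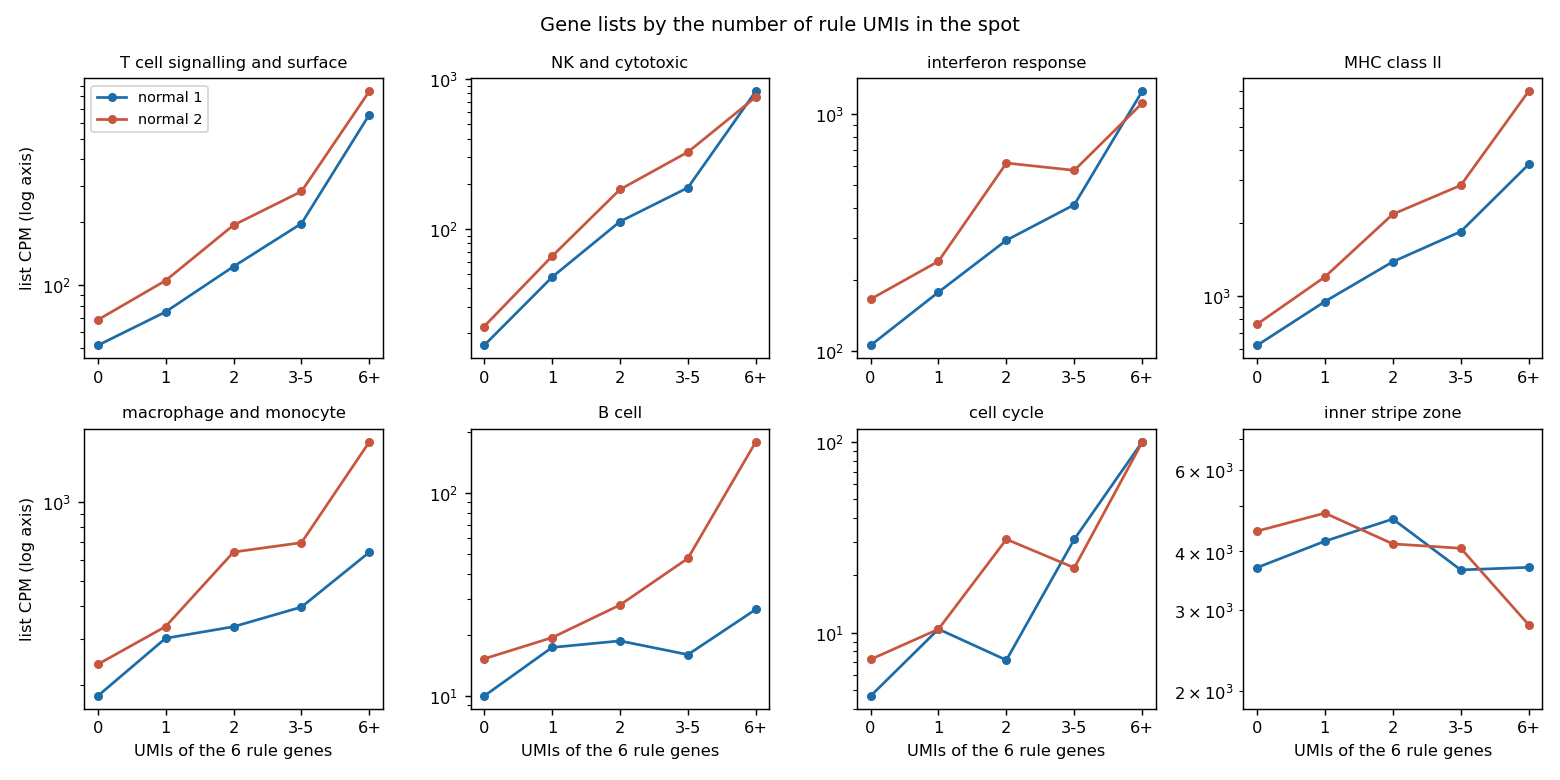
Summed level of 8 gene lists (CPM without TMM, log axis with its own range in each panel) against the number of rule UMIs in the spot (0, 1, 2, 3 to 5, 6 or more), for normal 1 and normal 2, 1 value per section and class. T cell, cytotoxic and MHC class II lists were higher at each class than at the one before in both sections, while inner stripe markers did not.

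Members that touched no other member and those that touched another were also set against 0-UMI spots on their own. The 47 and 36 members that touched none gave 169 higher genes (1.24%) and 4 lower (0.0293%) against 0-UMI spots, and the 15 and 49 that touched another gave 728 higher (5.33%) and 276 lower (2.02%). Calls in the first set held 10 of 20 T cell, 8 of 10 cytotoxic, 8 of 11 interferon and 6 of 8 MHC class II genes, with no plasma cell, dendritic cell or B cell gene. Most T cell and cytotoxic genes passed the filter of the main test through members alone, so their counts here are given as a description. The direct difference between the sets was not tested, and in normal 2 they lay in different zones, since none of the members touching no other was in the pelvis or inner medulla and 23 and 16 of the 49 others were. In normal 2 MHC class II stood at 1719.7 CPM in members touching none and 6411 CPM in those touching another, and in normal 1 at 1853 and 2849.8 CPM.

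The richest spot and the patches, chosen by their rule UMIs, were not alike. The spot of normal 1 with 34 rule UMIs lay in the inner stripe, 10 steps inside the edge, among 18591 UMIs of its own. It held 84 UMIs of interferon response genes, 168 of MHC class II, 47 of NK and cytotoxic genes and 25 of Cxcl9, with 0 of plasma cell genes, and 13178 CPM of inner stripe markers. The first patch of normal 2 (11 spots, 6 of them inner medulla) held interferon response genes at 888 CPM, plasma cell genes at 2142 CPM and MHC class II at 8042 CPM. The second (11 spots, 8 of them pelvis) held urothelial genes at 7244 CPM, interferon response genes at 1268 CPM, MHC class II at 8214 CPM, Ccl17 at 541 CPM and dendritic cell genes at 462 CPM, beside 29 CPM of the latter in 0-UMI spots. The third (7 spots, all scored as inner medulla from marker genes, with no histology used) had another makeup. It held 78 of the 178 rule UMIs of the inner medulla of normal 2, which was at 126 CPM of rule genes with it and 74.4 CPM without it, a comparison made after seeing the data. It had the highest T cell level of the patches (1292 CPM of signalling and surface genes) with interferon response genes at 358 CPM, MHC class II at 1386 CPM and macrophage genes at 296 CPM, against 166, 761 and 239 CPM in 0-UMI spots. B cell genes were at 825 CPM, Cxcl9 at 0 and red blood cell genes at 170382 CPM, beside 6762 CPM in 0-UMI spots. Relative to 0-UMI spots of normal 2, the third patch was at 18.9 times the level of T cell genes and 2.16 times that of interferon genes, where the second was at 16.2 and 7.65 times. The fourth patch (5 spots, 4 of them pelvis) was at 2.36 and 2.25 times, so its interferon level was close to that of the third. These are single patches of 1 section and have no replicate.

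**Figure D4:**
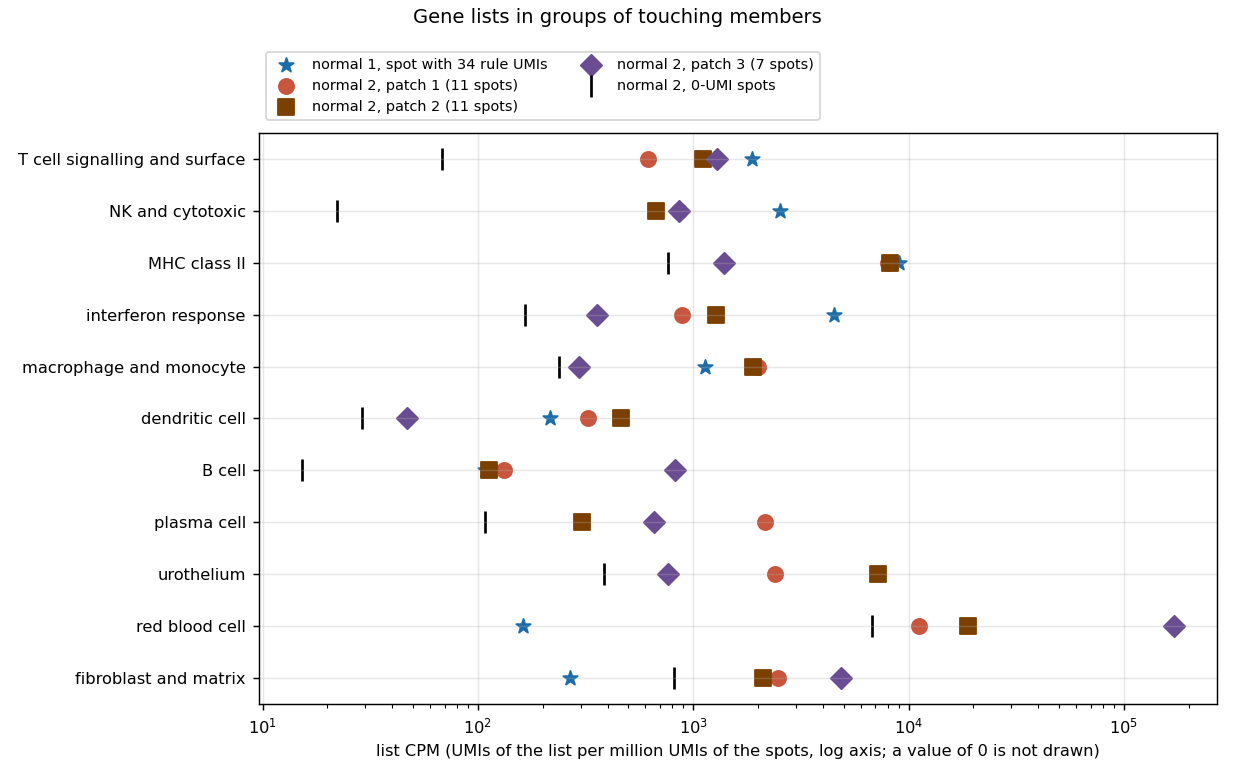
Summed level of 11 gene lists (CPM without TMM, log axis) in the spot of normal 1 with the most rule UMIs, in the 3 largest groups of touching members of normal 2, and in the 0-UMI spots of normal 2 (vertical ticks). Patch 3 (diamonds) lay beside the 0-UMI spots for macrophage and dendritic cell genes and far to the right for red blood cell and B cell genes.

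Spots that touched a member but held 0 rule UMIs themselves (227 in normal 1 and 226 in normal 2) were compared with 0-UMI spots that touched none (1951 and 2045), to see how far the pattern reached. By edgeR 108 genes (0.794%) were higher and 62 (0.456%) lower of 13608. The count depended on the fit: without normal 1 or normal 2, 34 and 16 genes were higher and 5 and 5 lower, DESeq2 gave 10 higher and 12 lower genes, and edgeR without the section term gave 0 of either, with 200 higher and 128 lower at an unadjusted p under 0.05. MHC class I genes were higher in 7 of 9 (median 0.52 beside -0.01 over all genes), MHC class II in 4 of 8 and the interferon response in 4 of 11. B2m, the light chain of MHC class I, was at 275 against 209 CPM in normal 1 and 322 against 226 CPM in normal 2 (log2 change 0.45 ± 0.06 SE, edgeR adjusted p = 1.17e-09). Iigp1, an interferon-inducible GTPase, was at 12.9 against 4.93 CPM in normal 1 and 19.7 against 6.27 CPM in normal 2 (log2 change 1.52 ± 0.21 SE, edgeR adjusted p = 7.15e-10), and Igtp at 23.2 against 14.8 CPM in normal 1 and 35 against 15.3 CPM in normal 2 (log2 change 0.91 ± 0.14 SE). Cxcl9 (5.45 against 1.99 CPM in normal 1 and 8.64 against 2.35 CPM in normal 2, log2 change 1.66 ± 0.32 SE) and Ccl5 (16.4 against 10.2 CPM in normal 1 and 27.6 against 10.5 CPM in normal 2, log2 change 1.03 ± 0.17 SE) were higher as well. For each of these genes the log2 change next to members was smaller than that in the members. Of the T cell list 2 of 12 were called, Thy1 and Ptprcap. Fibroblast genes were called in 7 of 10 and adipocyte genes in 4 of 6. The fibroblast list stood at 629.9 against 585 CPM in normal 1 and 1271 against 764 CPM in normal 2, and the adipocyte list at 1217 against 575 and 361 against 465 CPM. Col1a1 was at 10.3 against 11.1 CPM in normal 1 and 30.4 against 13.7 CPM in normal 2, and Adipoq at 30.1 against 13.6 CPM in normal 1 and 5.35 against 6.18 CPM in normal 2.

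Red blood cell genes moved with the same spots. All 5 were higher next to members, with Hba-a1, an alpha globin, at 4045 against 2047 CPM in normal 1 and 3252 against 1488 CPM in normal 2 (log2 change 1.05 ± 0.06 SE, edgeR adjusted p = 3.49e-76). Spots with 2% or more of their UMIs from these genes made up 12.3% of the spots next to members in normal 1 and 10.2% in normal 2, beside 7.79% and 4.94% of the other 0-UMI spots and 12.9% and 23.5% of members. With such spots left out, B2m (0.42), Iigp1 (1.58), Cxcl9 (1.60) and Ccl5 (0.95) had log2 changes close to those above and Hba-a1 was at 0.28, with 99 genes higher (0.735%) and 75 lower (0.557%). Igha, whose UMIs gathered in few spots, was also higher next to members (16.4 against 3.61 CPM in normal 1 and 74.1 against 15.9 CPM in normal 2, log2 change 2.20 ± 0.14 SE). By distance, the interferon response stood at 161, 109.8, 108 CPM at 1, 2 and 3 steps from the nearest member in normal 1 and 241, 184, 176 CPM in normal 2, and at 91.3 and 135 CPM at 6 or more. Cortex markers stood at 2343, 2154, 1979 CPM at 1, 2 and 3 steps in normal 1 and 2312, 2511, 2209.9 CPM in normal 2, and at 4311 and 4153 CPM at 6 or more steps, and the part of zone in the values at that distance was not tested. Against spots matched on zone and, outside the pelvis, on depth, 35 genes (0.274%) were higher and 4 (0.0314%) lower next to members. Among those higher were 5 MHC class I and 3 interferon genes.

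**Figure D5:**
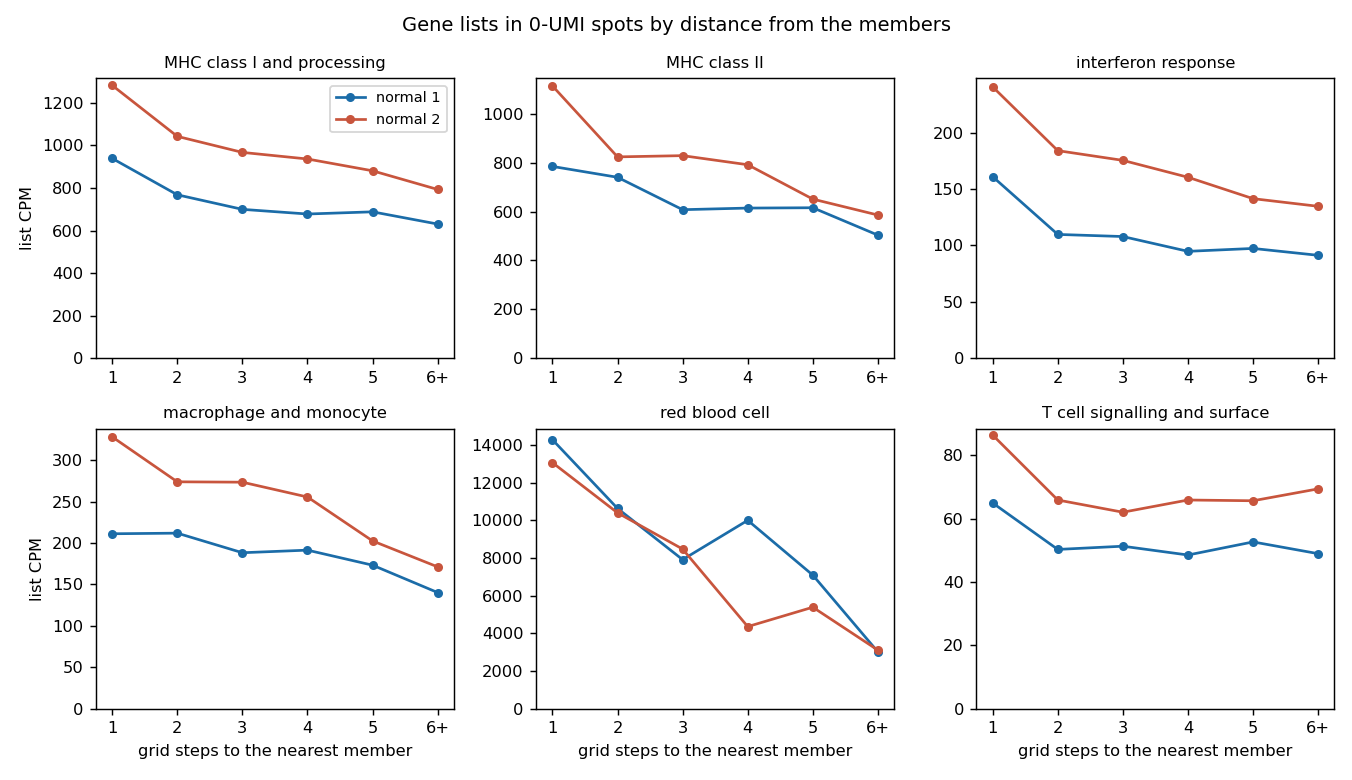
Summed level of 6 gene lists (CPM without TMM, axes from 0) in 0-UMI spots at 1 to 5 and at 6 or more grid steps from the nearest member, for normal 1 and normal 2, 1 value per section and distance. MHC class I and interferon response genes were highest at 1 step in both sections, and red blood cell genes likewise.

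Few spots of the ischemic sections met the rule, 0 of 2401 in ischemic 1, which allows a share of up to 0.125% at 3 counts, and 1 of 2613 in ischemic 2. Over whole sections, where 31% of genes were higher and 29.7% lower in ischemic kidney by edgeR, all 6 rule genes were lower, by log2 changes of -1.77 ± 0.28 SE for Trac and -4.04 ± 0.60 to -5.32 ± 0.41 for the others, with Trbc2 at 5.66 and 10 CPM in normal and 0.177 and 0.209 CPM in ischemic sections. Both ischemic sections lay under both normal ones for each of the 6, as they did for 39.2% of all genes tested. Of 20 tested T cell signalling and surface genes 13 were lower and 1, Ubash3a, was higher, and Thy1 did not pass the test (log2 change -0.18 ± 0.26 SE, edgeR adjusted p = 0.562). All 9 tested cytotoxic genes were lower, Nkg7 going from 4.23 and 5.29 to 0.0883 and 0.0698 CPM (log2 change -5.82 ± 0.37 SE, edgeR adjusted p = 2.03e-06). Cxcl9 fell from 5.91 and 11.9 to 0.0589 and 0.0349 CPM, while Cxcl10 was higher, at 19.9 and 20 against 12.8 and 16.7 CPM (log2 change 0.44 ± 0.13 SE, edgeR adjusted p = 0.0156). Red blood cell genes were lower in 5 of 5 (median log2 change -3.32), urothelial genes in 5 of 6 (-3.17) and MHC class II genes in 8 of 8 (-3.06), while neutrophil genes were higher in 5 of 5 (6.59), and the part of blood and of pelvis tissue in the T cell values was not tested. The values are shares of all transcripts of a section, and fewer T cells and less T cell RNA among more RNA of other cells cannot be told apart in them.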

How the data were processed

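Spatial transcriptomes (Visium) of 4 mouse kidney sections were used. The authors processed the reads with Space Ranger 1.3.0 against mm10 and deposited UMI counts per gene and spot, not normalized. The annotation is not named. The deposited matrices hold only spots over tissue. Here the rule was applied to each spot, counts were summed per section over members, over 0-UMI spots and over 0-UMI spots touching a member, and the sums were tested with edgeR 4.0.16 (quasi-likelihood, TMM, filterByExpr, section as a block, R 4.3.3), the 6 rule genes being left out of the tests of members. In both tests on normal sections edgeR set infinite prior degrees of freedom, so that a gene's own spread carried no weight in its p. Whole sections were compared between conditions without a block. DESeq2 1.42.0 and the other alternatives are given under the dependence on processing. Rules for named genes were the rule genes, the study's DN T cell genes with Cd4, Cd8a and Cd8b1, up to 4 genes per list with the smallest p, and the 10 largest rises and falls. Gzmb, Ifng, B2m, Cxcr3, Ifit3 and Col1a1, together with genes given at low counts or in the condition comparison, were named after their values were seen. Members and lists were chosen with earlier results of these data known. The scripts were tested on simulated data. Intervals were Clopper-Pearson at 95%, and the floor of a 0 was 3 counts. A few genes are not reported here by name.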

Additional observations from a re-analysis of the deposited data

How the results depend on the processing

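Called as higher in members were 7 to 9 of 9 MHC class I genes and 8 to 10 of 11 interferon response genes under the alternatives for which lists were counted, whereas counts over all genes moved, and unless stated the cause was not tested. Against 992 genes higher and 363 lower in members, DESeq2 gave 447 and 7, and the same sums with no section block 522 and 14. With 0-UMI spots matched on section, zone and, outside the pelvis of normal 2, depth, the counts were 524 and 72. All 4 sections in 1 model gave 592 and 42. Without pelvis and inner medulla members the counts were 293 and 55 and, among members touching no other (chosen after seeing the data), 169 and 4, both with fewer spots summed. In both settings the 0-UMI spots of all zones were kept. Lower genes numbered 600 at a threshold of 2 UMIs, 208 at 4 UMIs and 181 without the largest patch. Leaving out 1 section gave 340 (without normal 2) to 1724 (without normal 1) higher and 133 to 1733 lower, using the 0-UMI sums of the ischemic sections, which hold 0 and 1 members, for the spread and assuming that the lone section varies alike. Next to members, 108 higher and 62 lower became 10 and 12 by DESeq2, 0 and 0 with no section block and with all 4 sections in 1 model, 35 and 4 against matched spots, and 16 to 34 and 5 with 1 section left out. Cnn1 turned to -1.71 without pelvis and inner medulla members and -0.46 in members touching no other, and ranged from -0.19 to 1.98 with 1 section left out. Jchain (-0.95) and Tagln (-0.33) turned without pelvis and inner medulla members. Next to members, Adipoq ranged from -0.25 to 1.10 and Col1a1 from -0.15 to 1.10 with 1 section left out. Members in the outer stripe went from 26.9% to 22.4% with zones from the spot alone, and the 147 members became 48 after thinning, 100 with at least 2 UMIs of the CD3 genes alone and 181 with at least 2 UMIs of the receptor genes alone. For whole sections, replicate numbers are not said to pair the sections and the deviations of same-numbered sections correlated at 0.20, and with the replicate number as a block 5197 genes were higher and 4892 lower, within 1.5 times of 4737 and 4542. Most members held 3 to 5 UMIs of the rule genes, which limits what single spots can show.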
